A study of Mus musculus with 2 samples.

Results

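The granule neuron lineage of the murine dentate gyrus was described from 88 of the 196 filtered cells of a SORT-seq experiment. Its members were taken from the authors' cell annotation, which names 37 cells as nIPCs and neuroblasts, 30 as immature neurons and 21 as mature neurons. Dentate gyri of C57BL/6J mice aged 4 to 5 weeks were dissociated, and the cell suspensions were pooled. In the fresh group, cells pooled from 3 mice were sorted at once with a stain for dead cells, and 23 of its 64 filtered cells belong to the lineage. In the MeOH-fixed group, cells pooled from 4 mice were fixed in cold methanol (MeOH), stored frozen for 3 weeks, rehydrated and sorted without that stain, and 65 of its 132 filtered cells belong to the lineage. Each group is 1 plate and 1 library, so that fixation, mouse pool, plate and sorting cannot be told apart, no test was made, and every interval given is an exact 95% interval for counting error only. The stages are clusters that the authors made from these same counts, so that differences between stages are descriptions of the clusters.

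New granule neurons are made in the dentate gyrus throughout life. Radial glia-like stem cells give rise to neurogenic intermediate progenitor cells (nIPCs), which divide and carry the T-box factor Eomes. Their progeny, the neuroblasts, express the microtubule-associated protein doublecortin (Dcx) and the calcium-binding protein calretinin (Calb2). As the neurons mature, they extend dendrites into the molecular layer and mossy fibres to CA3, form synapses, and exchange calretinin for calbindin (Calb1).

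In the MeOH-fixed library, 21 cells were nIPCs and neuroblasts (15.9% of filtered cells, 10.1 to 23.3%), 25 were immature neurons (18.9%, 12.6 to 26.7%) and 19 were mature neurons (14.4%, 8.89 to 21.6%). In the fresh library there were 16 nIPCs and neuroblasts (25%, 15.0 to 37.4%), 5 immature neurons (7.81%, 2.59 to 17.3%) and 2 mature neurons (3.12%, 0.381 to 10.8%). The lineage thus made up 49.2% of the MeOH-fixed (40.4 to 58.1%) and 35.9% of the fresh filtered cells (24.3 to 48.9%), with overlapping intervals. The barcode numbers of the plates overlapped in 5 lineage cells, as wells of separate plates use the same set of barcodes.

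The stages differed in the number of UMIs, the tags that mark single transcripts. MeOH-fixed immature neurons held 2563 to 34333 UMIs per cell (median 11563), nIPCs and neuroblasts 1161 to 12604 (median 3873) and mature neurons 1293 to 19461 (median 2554). Fresh nIPCs and neuroblasts held 1108 to 17709 UMIs (median 11468.5), and the 5 fresh immature neurons held 971, 3520, 28791, 31254 and 31563. Immature neurons therefore had the highest median in both libraries, with ranges that overlapped those of the other stages. Per spike-in transcript, synthetic RNA that was added to every well, the medians in MeOH-fixed nIPCs, immature and mature neurons were 3.42, 8.51 and 2.25 UMIs. When each cell was thinned to 800 UMIs, the same 3 stages showed medians of 535, 593 and 555 genes, against 1790, 3959 and 1323 without thinning. Mitochondrial genes took a median of 11.5% of UMIs in MeOH-fixed nIPCs and neuroblasts, 6.20% in immature neurons and 16.7% in mature neurons, where the highest cell reached 45.5%. Because of these differences, gene levels are given below as CPM, the UMIs of a gene summed over the cells of a stage within a library scaled to a common total. A level of 0 in a stage allows a level up to that of 3 UMIs.

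**Figure D1:**
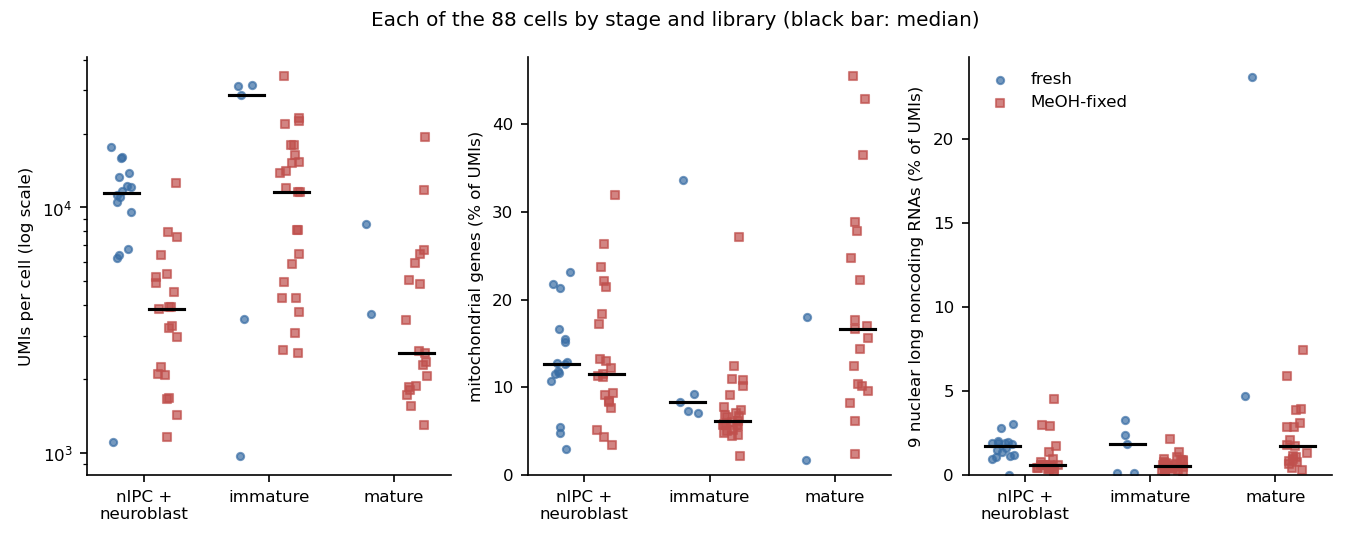
Each point is 1 of the 88 cells, by stage (x axis) and library (colour), with UMIs per cell on a log axis, mitochondrial genes as a percentage of UMIs, and 9 nuclear long noncoding RNAs as a percentage of UMIs, and black bars mark medians (none for the 2 fresh mature neurons). Immature neurons have the highest median UMI number (28791 fresh, 11563 MeOH-fixed), and MeOH-fixed mature neurons have the highest median mitochondrial percentage (16.7%).

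Of the markers of nIPCs and neuroblasts, Eomes, Dcx, Sox11 and Calb2 had higher pooled levels in these cells than in the later stages in both libraries. They did not separate every cell, as Eomes was found in 6 and Dcx in 11 of 21 MeOH-fixed nIPCs and neuroblasts. The remaining marker, Ccnd2, was at least 2-fold lower in MeOH-fixed immature neurons, but the share of cells with a UMI was similar. Ccnd2 was found in 10 of 21 MeOH-fixed nIPCs and neuroblasts and 10 of 25 immature neurons, and in 7 of 16 and 2 of 5 fresh ones. Eomes (chromosome 9, 118478212 to 118486132 in GRCm38) was at 159 CPM (86.9 to 267) in MeOH-fixed and 279 CPM (206 to 369) in fresh nIPCs and neuroblasts, and no UMI was counted in immature or mature neurons of either library. Dcx (chromosome X, 143855842 to 143933311) was at 454 CPM in MeOH-fixed nIPCs and neuroblasts, 9.94 CPM in immature neurons (3 UMIs) and 0 in mature neurons, and at 967 and 0 CPM in the fresh nIPCs and immature neurons. The transcription factor Sox11 (chromosome 12, 27334264 to 27342574) ranged from 0 to 41 UMIs per cell (median 4) in MeOH-fixed nIPCs and neuroblasts, from 0 to 8 (median 0) in immature and from 0 to 1 (median 0) in mature neurons. Its pooled level was 1850.4, 109 and 35.0 CPM in this order, and the log2 ratio of immature neurons over nIPCs and neuroblasts was -4.08 (-4.67 to -3.53). Calb2 (chromosome 8, 110137502 to 110168210) was at 647 CPM in MeOH-fixed nIPCs and neuroblasts, 6.63 CPM in immature neurons (2 UMIs) and 163 CPM in mature neurons, and at 865 and 10.4 CPM (1 UMI) in fresh nIPCs and immature neurons. Ranges per cell overlapped at the low end for Eomes, Dcx, Sox11 and Calb2, since some nIPCs and neuroblasts held no UMI. For Calb2, 1 MeOH-fixed mature neuron held 14 UMIs, which was also the highest number in MeOH-fixed nIPCs and neuroblasts. Summed over the 5 stage markers, the level was 3826 CPM (3428 to 4257) in MeOH-fixed nIPCs and neuroblasts, 229 CPM in immature and 292 CPM in mature neurons, compared with 71.0 CPM in the other 5 identities of that library.

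Within this earliest stage, cells differed in which markers they held. In the fresh library, 10 of 16 cells held a UMI of both Eomes and Dcx, 4 held Dcx alone, none held Eomes alone and 2 held neither. In the MeOH-fixed library, 4 of 21 cells held both, 7 Dcx alone, 2 Eomes alone and 8 neither, and at a median depth of 3873 UMIs a gene without a UMI cannot be read as absent. Sox11 and the bHLH factor Neurod1 were found together in 15 of 16 fresh and 14 of 21 MeOH-fixed cells. Outside the lineage, 3 of 67 MeOH-fixed cells (4.48%) held a Dcx UMI and 4 held one of Sox11 (5.97%), at a median of 2648 UMIs.

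Genes of cell division had their highest levels in MeOH-fixed nIPCs and neuroblasts. Mki67, a marker of proliferation, was found in 4 of 21 of these cells (19.0%, 5.45 to 41.9%) and in 0 of 16 fresh ones, which allows a share of cells with a UMI of up to 18.8%, and the exact intervals of both libraries (0 to 20.6% in fresh cells) overlapped. A single Mki67 UMI was also found in 1 of 25 MeOH-fixed immature (4%, 0.101 to 20.4%) and in each of 2 of 19 mature neurons (10.5%, 1.30 to 33.1%), whereas the cells of the earlier stage held up to 14. Of the 4 cells, 3 also held Dcx and 3 held Eomes. The 28 genes of the G2/M list summed to 4053 CPM (3643 to 4496) in MeOH-fixed and 199 CPM (139 to 277) in fresh nIPCs and neuroblasts, and 3 MeOH-fixed cells gave more than 1% of their UMIs to it. These 3 cells held 340 of the 357 UMIs, and the other 18 cells were at 267 CPM (155 to 427), an interval that overlaps that of the fresh cells. In MeOH-fixed immature and mature neurons the same list summed to 99.4 and 233 CPM. The cyclin Ccnd2 was at 715 CPM in MeOH-fixed and 91.0 CPM in fresh nIPCs and neuroblasts (log2 ratio 2.97, 2.16 to 3.87), with 34 of the 63 MeOH-fixed UMIs in 1 cell.

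**Figure D2:**
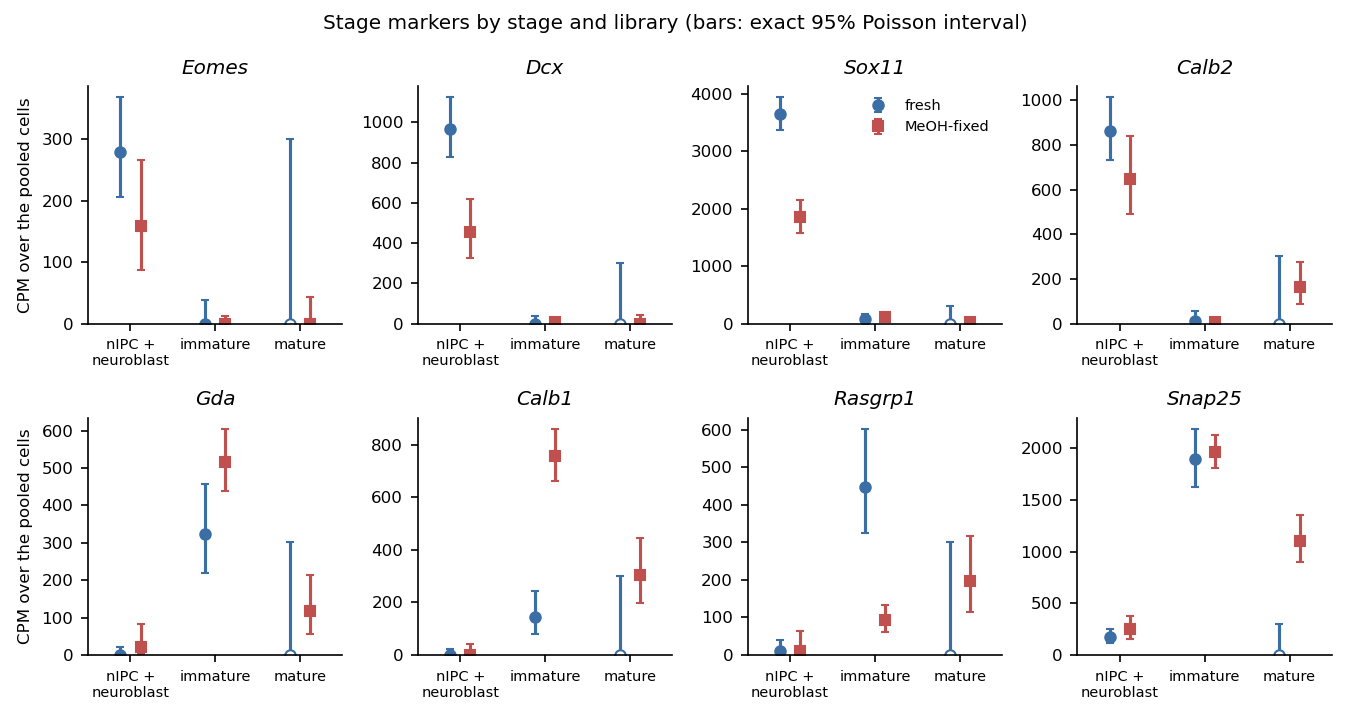
Points give the CPM of 8 genes over the pooled cells of a stage (x axis), with blue circles for the fresh and red squares for the MeOH-fixed library, open circles for the 2 fresh mature neurons, and bars for the exact 95% Poisson interval. Eomes, Dcx and Sox11 are highest in nIPCs and neuroblasts, whereas Calb1 and Gda are highest in MeOH-fixed immature neurons (755 and 517 CPM).

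A few cells annotated as nIPCs and neuroblasts carried the markers of another neuron. Cajal-Retzius cells are early-born neurons of the hippocampal fissure that secrete reelin (Reln), and 8 of their markers took more than 1% of UMIs in 4 MeOH-fixed cells and 1 fresh cell. In these 4 cells, 164 UMIs of Reln, 55 of Ndnf, 28 of Nhlh2, 18 of Trp73 and 16 of Cacna2d2 were counted. The other members of the list gave few, with 12 UMIs of Diablo and 1 each of Lhx5 and Lhx1. None of Sox11, Neurod1, Dcx, Igfbpl1, Eomes or Prox1 was counted in the 4 cells. Of the stage markers, 7 UMIs of Calb2 (in 2 cells) and 2 of Ccnd2 were counted in them. The other 17 cells held no Reln UMI, while Sox11 was found in 17 of 17, Neurod1 and Igfbpl1 in 14 and Dcx in 11 of them. The fresh cell, with 6408 UMIs, held 26 UMIs of Reln, 21 of Ndnf and 3 of Trp73, but none of Lhx5 or Lhx1. It held 1 UMI of Neurod1, and none of Sox11, Dcx, Igfbpl1, Calb2 or Eomes. The data of these 5 cells thus go against the label of the stage, and the list summed to 3474 CPM in MeOH-fixed nIPCs and neuroblasts against 19.9 CPM in immature and 70.0 CPM in mature neurons. Without the 4 cells, Sox11 was at 2253 CPM (1921 to 2627), Neurod1 at 1300 CPM and Dcx at 553 CPM in the MeOH-fixed stage. Without them 825 in place of 773 genes were past 2-fold between immature neurons and nIPCs, and without all 5 cells 93.7% of genes past 2-fold in MeOH-fixed cells kept the same sign in the fresh library.

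**Figure D3:**
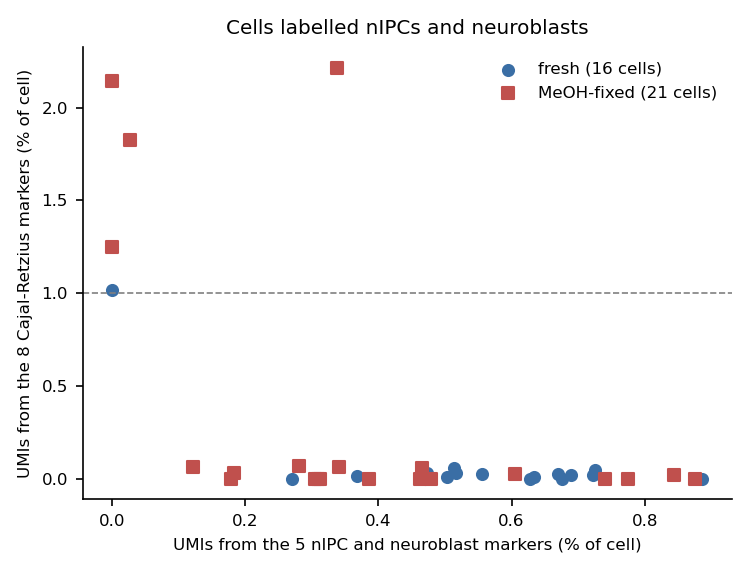
Each point is 1 of the 37 cells labelled nIPCs and neuroblasts, with the share of its UMIs from the 5 stage markers on the x axis and from 8 Cajal-Retzius markers on the y axis, and the dashed line is at 1%. The 4 MeOH-fixed cells and 1 fresh cell above the line lie apart from the other 32 cells.

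The markers of immature and mature neurons were present in both later stages. The 6 immature markers summed to 761 CPM in MeOH-fixed nIPCs and neuroblasts, 2027 CPM in immature and 1283 CPM in mature neurons, whereas in the fresh library nIPCs (1639 CPM, 1455 to 1839) and immature neurons (1550 CPM, 1312 to 1820) overlapped, with Ncam1 at 1144 and 291 CPM. Gda, a guanine deaminase, was at 22.7 CPM (2 UMIs) in MeOH-fixed nIPCs and neuroblasts, 517 CPM (439 to 605) in immature and 117 CPM (56.0 to 215) in mature neurons. The desmosomal protein gene Dsp followed the same order, at 11.3, 308 and 140.0 CPM. Calb1 (chromosome 4, 15881264 to 15908064) was not counted in nIPCs and neuroblasts of either library, and was at 755 CPM (660.4 to 860.0) in MeOH-fixed immature and 303 CPM (198 to 444) in mature neurons. Per cell, Calb1 ranged from 0 to 28 UMIs (median 7) in immature and from 0 to 13 (median 0) in mature neurons, with a UMI in 22 of 25 and 9 of 19 cells. Rasgrp1, a guanine nucleotide exchange factor for Ras, and the scaffold gene Tanc1 had the higher values in mature neurons, at 198 (116 to 318) against 92.8 CPM (61.6 to 134) and at 268 (170.1 to 403) against 205 CPM (157 to 263). Their intervals overlapped. The mature markers together summed to 1202 CPM (981 to 1457) in MeOH-fixed mature and 1292 CPM (1167 to 1427) in immature neurons, with overlapping intervals, and to 79.5 CPM in nIPCs and neuroblasts. The paper does not name Calb1 among its mature markers. Calb1 gave 228 of the 390 UMIs of this sum in MeOH-fixed immature and 26 of the 103 in mature neurons. The order from immature to mature was therefore not visible in Calb1 or in the sum that includes it. As the sums were near each other and Calb1 weighed more in immature neurons, the other mature markers together were higher in mature neurons. No sum without Calb1 was made, so that this difference has no interval. The authors' names are kept below as labels. In the 5 fresh immature neurons the mature markers summed to 1353 CPM (1130 to 1606), with Rasgrp1 at 447 CPM (324 to 603).

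Markers of glia and of endothelial cells were lower in the lineage than in the cells annotated as such. In the MeOH-fixed stages, oligodendrocyte markers summed to 391 to 770 CPM against 88237 CPM in the cells annotated as oligodendrocytes, OPC markers to 96.1 to 227 against 15890 CPM, microglia markers to 49.7 to 187 against 33997 CPM and endothelial markers to 204 to 315 against 18417 CPM. Lists of GABA neurons (159 to 373 CPM), CA pyramidal cells (113.5 to 368 CPM) and pericytes, smooth muscle and fibroblasts (26.5 to 245 CPM) have no annotated cells of their own in these data, and the 2 genes each for ependymal and blood cells that the counts hold were at 0.

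Mossy cells are the glutamatergic neurons of the hilus, and 9 of their markers summed to 182 CPM in MeOH-fixed nIPCs and neuroblasts, 994 CPM (885 to 1113) in immature and 1050.0 CPM (844 to 1291) in mature neurons, against 162 CPM in the other 5 identities. In immature neurons 158 of the 300 UMIs were from Cck, found in 23 of 25 cells, and no cell exceeded 0.294% of UMIs. In mature neurons 65 of the 90 UMIs came from 1 cell, the one with the most UMIs (19461), at 3340 CPM (2578 to 4257). It held 35 of the 36 UMIs of Csf2rb2 and 21 of the 29 of Cck. The other members of the list gave few, with 4 UMIs of Rab6b, 2 of Ociad2, 1 each of Ajap1, Calcrl and Sv2b, and none of Drd2 or Nmb. Outside the list, the cell held all 14 UMIs of Calb2 and none of Calb1 or Prox1. It also held 33 UMIs of Snap25 and 8 of Slc17a7. Its markers thus put its place in the granule lineage in question, not its label as a mature neuron. The other 18 mature neurons were at 377 CPM (244 to 557) for the mossy cell list. Results for mature neurons that rest on this cell are given below with and without it.

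The identity of the granule neuron was visible in the later stages through other genes. The 14 genes of the granule lineage list summed to 443 CPM in MeOH-fixed nIPCs and neuroblasts, 3121 CPM in immature and 2053 CPM in mature neurons, and to 421 and 2903 CPM in fresh nIPCs and immature neurons. The synaptic organizer C1ql2 (chromosome 1, 120340582 to 120343174) was at 11.3 CPM (1 UMI), 706 CPM and 362 CPM in the 3 MeOH-fixed stages. Prox1, the homeobox factor that marks granule cells from their progenitors on, was low throughout, at 102, 56.3 and 46.7 CPM in MeOH-fixed and 267 and 104 CPM in fresh nIPCs and immature neurons, with 9, 17, 4, 47 and 10 UMIs.

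From nIPCs and neuroblasts to immature neurons, genes of synapses, receptors and calcium handling were higher and transcription factors of neurogenesis and ribosomal protein genes lower. Of 1602 genes with at least 50 UMIs over both MeOH-fixed stages, 585 (36.5%) were at least 2-fold higher and 188 (11.7%) at least 2-fold lower in immature neurons. The immature neurons held 301864 and the nIPCs and neuroblasts 88091 UMIs, so that this minimum let more genes of the former pass, and the median log2 ratio of all measured genes was 0.52. In the fresh library, 219 of 874 genes (25.1%) were at least 2-fold higher and 206 (23.6%) lower, with a median of -0.09. Of the 585 genes higher in MeOH-fixed immature neurons, 229 were measured in the fresh library, of which 216 (94.3%) had the same sign and 171 (74.7%) were past 2-fold. Of the 188 lower genes, 156 were measured in the fresh library, and 145 (92.9%) had the same sign and 96 (61.5%) were past 2-fold. These contrasts share no cells.

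The presynaptic machinery was among the groups with higher levels in immature neurons. In the MeOH-fixed library 17 of 20 measured genes of the synaptic vesicle and release list were at least 2-fold higher and none lower (median log2 ratio 2.04), and in the fresh library 12 of 15 were higher and Cplx1 lower (median 2.08). Snap25, a SNARE protein of vesicle fusion, ranged from 0 to 4 UMIs per cell (median 1) in MeOH-fixed nIPCs and neuroblasts and from 3 to 73 (median 24) in immature neurons, which hold a UMI in all 25 cells. Its level was 249.7 CPM (157 to 378) and 1961 CPM (1806 to 2126), a log2 ratio of 2.97 (2.36 to 3.66), and in the fresh library 176 and 1894 CPM, a ratio of 3.42 (2.87 to 4.02). The vesicle protein gene Syp was at 79.5 and 832 CPM in the MeOH-fixed stages, and the vesicle-associated Rph3a at 11.3 CPM (1 UMI) and 404 CPM.

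On the postsynaptic side, all 15 measured scaffold genes were at least 2-fold higher in MeOH-fixed immature neurons (median 2.69) and 9 of 10 in fresh ones (median 2.92). Nrgn, which encodes the calmodulin-binding neurogranin, was at 534 CPM in MeOH-fixed nIPCs and neuroblasts and 8146 CPM (7827 to 8475) in immature neurons, where each cell held 14 to 269 UMIs (median 90). Fresh nIPCs and immature neurons were at 176 and 7638 CPM. All 7 measured glutamate receptor genes were at least 2-fold higher in MeOH-fixed immature neurons, among them the NMDA receptor subunit Grin2b (125 against 735 CPM, log2 ratio 2.56, 1.69 to 3.58) and the AMPA receptor subunit Gria2 (443 against 1471 CPM, 1.73, 1.26 to 2.24). All 9 measured genes of GABA receptors and chloride transporters were also higher (median 2.79). Of 15 measured voltage-gated channel genes, 13 were higher, and the sodium channel Scn8a was at 11.3 CPM (1 UMI) and 484 CPM.

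Calcium handling showed the highest median of the functional lists in MeOH-fixed cells, with 24 of 27 measured genes at least 2-fold higher in immature neurons (median 3.11) and Calb2 lower. In the fresh library 18 of 20 genes were higher (median 2.07), and Calb2 and Atp2a1 were lower, the latter with all 144 of its UMIs in 1 cell of the nIPC stage. The calcium sensor Hpca was at 45.4 and 1312 CPM in the MeOH-fixed stages (log2 ratio 4.85, 3.48 to 6.74), the calcineurin subunit Ppp3ca at 182 and 3263 CPM (4.17, 3.46 to 4.98) and the calmodulin gene Calm3 at 182 and 1004 CPM (2.47, 1.74 to 3.29). Summed over the list, calcium handling genes took 7685 CPM in nIPCs and neuroblasts, 34976 CPM in immature and 17325 CPM in mature neurons of the MeOH-fixed library. The highest log2 ratios of single genes belonged to C1ql2 (5.96, 3.46 to 11.27), the adenylyl cyclase Adcy1 (5.70), Rgs7bp (5.57), Cck (5.53) and Fam163b (5.48), each with 1 or 2 UMIs in nIPCs and neuroblasts.

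**Figure D4:**
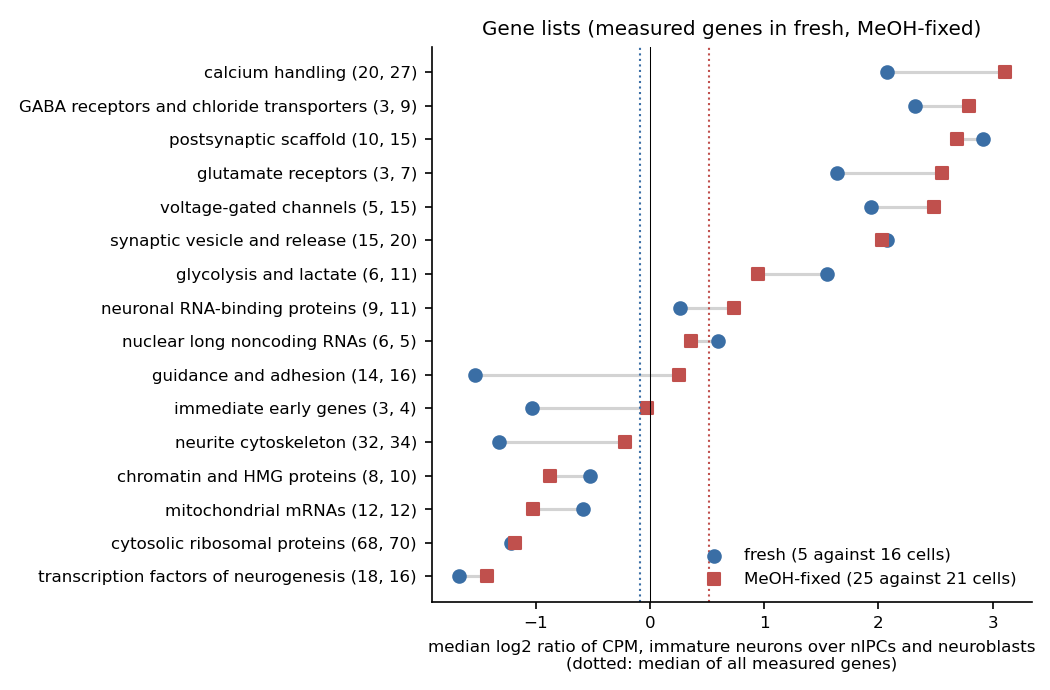
Each row is a gene list, with the number of measured genes in the fresh and MeOH-fixed library in parentheses, and points give the median log2 ratio of CPM of immature neurons over nIPCs and neuroblasts (blue circles fresh, red squares MeOH-fixed). Dotted lines mark the median of all measured genes (-0.09 fresh, 0.52 MeOH-fixed), and calcium handling (3.11) and transcription factors of neurogenesis (-1.43) have the highest and the lowest MeOH-fixed median of the 16 lists drawn.

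In contrast, transcription factors of neurogenesis were mostly lower. Of 16 measured in the MeOH-fixed library, 11 were at least 2-fold lower in immature neurons, and Bcl11b and Mef2c were higher (median -1.43), and of 18 measured in the fresh library, 15 were lower and Bcl11b higher (median -1.67). Neurod1 was at 1067 and 142 CPM in MeOH-fixed and 1866 and 239 CPM in fresh nIPCs and immature neurons. Nfix, a nuclear factor I gene, was at 1203 and 212 CPM in the MeOH-fixed stages (log2 ratio -2.50, -2.98 to -2.04). Bcl11b, also known as Ctip2, was at 34.1 CPM (3 UMIs) and 447 CPM. The list took 16687 CPM in MeOH-fixed and 26096 CPM in fresh nIPCs and neuroblasts, and 5532 and 6587 CPM in immature neurons.

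The cytoskeleton list was split. Among 34 measured genes, 7 were at least 2-fold higher and 10 lower in MeOH-fixed immature neurons (median -0.22), and among 32 in the fresh library, Dclk1 was higher and 18 were lower (median -1.32). Among the lower members, the microtubule destabilizer Stmn1 was at 2656 and 222 CPM, the tubulin Tubb2b at 1226 and 133 CPM, and the actin-binding thymosin gene Tmsb10 at 1328 and 29.8 CPM. Nnat, which encodes the small membrane protein neuronatin, had the lowest log2 ratio among genes with at least 100 UMIs and a UMI in 50% of the cells of the higher stage (-6.38, -7.85 to -5.22), with 1657 against 19.9 CPM. Of 70 measured genes of cytosolic ribosomal proteins, 44 were at least 2-fold lower and none higher in MeOH-fixed immature neurons (median -1.19), and 43 of 68 were lower in fresh ones (median -1.22). Chromatin and HMG proteins were lower for 3 of 10 measured genes, and Hmgn2 was at 1759.5 and 272 CPM in the MeOH-fixed stages. Glycolysis genes, in turn, were at least 2-fold higher for 5 of 11 in MeOH-fixed and 6 of 6 in fresh immature neurons. Among all measured genes 36.5% and 25.1% were higher, so that the MeOH-fixed count was not far above that share. The list medians were 0.95 and 1.55, against 0.52 and -0.09 for all measured genes. Aldoa was at 329 and 1696 CPM in the MeOH-fixed stages.

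RNA-binding protein and guidance genes past 2-fold were about as frequent in MeOH-fixed cells as among all measured genes (36.5% higher, 11.7% lower). Of 11 measured neuronal RNA-binding protein genes, Rbfox1, Rbfox3, Celf4 and Celf5 were at least 2-fold higher and the splicing repressor Ptbp2 lower in MeOH-fixed immature neurons. Rbfox3, which encodes the neuronal marker NeuN, was at 125 and 583 CPM in the MeOH-fixed (log2 ratio 2.22, 1.35 to 3.25) and at 495 and 593 CPM in the fresh stages (0.26, -0.25 to 0.76), so that its ratio was past 2-fold in the MeOH-fixed library alone, and the difference between the libraries was not tested. Elavl4, also an RNA-binding protein gene, was at 499 CPM in MeOH-fixed and 273 CPM in fresh nIPCs and neuroblasts and was not counted in immature neurons of either library. Of 16 measured guidance and adhesion genes, 6 were higher and Plxna2 and Reln lower in MeOH-fixed immature neurons (median 0.25), and of 14 in the fresh library, Epha7 was higher and 8 were lower (median -1.53). The semaphorin receptor gene Plxna2 was at 249.7 and 103 CPM in the MeOH-fixed and 449.5 and 125 CPM in the fresh stages. Among immediate early genes, Jun was at 193 and 414 CPM and the growth factor Bdnf at 0 and 298 CPM in the MeOH-fixed stages, and Jund and Egr1 were at least 2-fold lower in immature neurons of both libraries.

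Pairs of related genes were compared within each stage, as the share of both genes' UMIs that belonged to the partner assigned as the later one. The assigned order was not tested. The calbindin gene Calb1 made up 0% of the UMIs of Calb1 and Calb2 together in nIPCs and neuroblasts of both libraries, and 99.1% (96.9 to 99.9%) in MeOH-fixed and 93.3% (68.1 to 99.8%) in fresh immature neurons. In MeOH-fixed mature neurons it was 65.0% (48.3 to 79.4%), where all 14 Calb2 UMIs came from the cell with mossy cell markers, which held no Calb1. The vesicular glutamate transporter Slc17a7 made up 21.1% (6.05 to 45.6%) of the UMIs of itself and Slc17a6 in MeOH-fixed nIPCs and neuroblasts and 100% in immature (97.6 to 100%) and mature neurons (88.8 to 100%). The chloride exporter Slc12a5 made up 3 of 6 UMIs of the pair with the importer Slc12a2 in MeOH-fixed nIPCs and 0 of 29 in fresh ones (0 to 11.9%), and stood at 91.1% and 91.9% in immature neurons. Tubb2a stood at 21.2% (14.7 to 29.0%) and 88.8% (85.1 to 91.9%) of the pair with Tubb2b in MeOH-fixed nIPCs and immature neurons, and Stmn3 stood at 13.7% (9.80 to 18.3%) and 59.9% (52.0 to 67.4%) of the pair with Stmn1. The share of the NMDA receptor subunit Grin2a over Grin2b was low throughout, at 0, 4.31 and 4.21% in the MeOH-fixed stages. Of 16 pairs, the later partner had the higher share in immature neurons in 10 in the MeOH-fixed and in 13 in the fresh library. Cplx1 went the other way in both, from 24.6 to 10.3% in MeOH-fixed and from 40.2 to 6.79% in fresh cells, as did Nfix. In MeOH-fixed cells the shares of Camk2a (44.4 to 37.0%), Scn2a1 (85.7 to 68.0%), Gabra4 (80 to 52.8%) and Eno2 (100 to 99.5%) were also lower. Some shares rest on few UMIs, such as 1 of 2 for Dlg4 in MeOH-fixed nIPCs and neuroblasts.

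**Figure D5:**
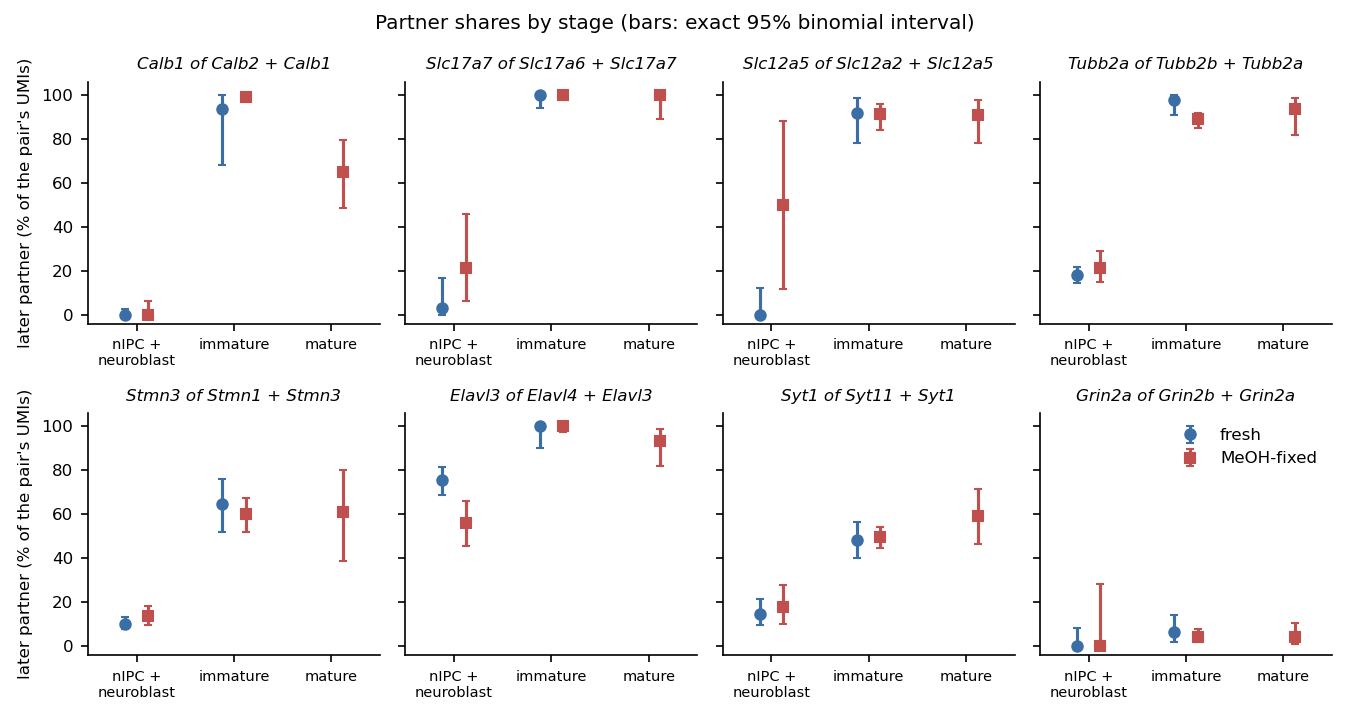
Each panel gives the later partner's share of the UMIs of 2 related genes in percent (y axis) by stage (x axis), with blue circles for the fresh and red squares for the MeOH-fixed library and exact 95% binomial intervals (fresh mature neurons not shown). Calb1, Slc17a7 and Tubb2a reach 99.1%, 100% and 88.8% in MeOH-fixed immature neurons, whereas Grin2a stays at 4.31%. All pairs drawn have the higher share of the later partner in immature neurons, and the pairs that go the other way are not drawn.

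Compared with immature neurons, mature neurons of the MeOH-fixed library held more nuclear long noncoding RNA and mitochondrial rRNA and less glycolysis and calcium handling mRNA. Of 1616 measured genes, 142 (8.79%) were at least 2-fold higher and 497 (30.8%) at least 2-fold lower, with a median log2 ratio of -0.54. Without the cell with mossy cell markers the counts were 107 and 464 of 1498 genes. All 6 measured nuclear long noncoding RNAs were higher. Meg3 (chromosome 12, 109541001 to 109571726) had the highest log2 ratio (3.48, 3.27 to 3.70), with 227, 795 and 8878 CPM in the 3 stages, and Miat followed (2.69, 2.25 to 3.15). Of the 761 Meg3 UMIs in mature neurons, 542 (71.2%) came from the cell with mossy cell markers, without which Meg3 was at 3306 CPM (log2 ratio 2.06), and 14 of the other 18 cells held a Meg3 UMI. That cell also held 253 of the 274 UMIs of Snhg11 (92.3%), and 7 of the other 18 cells held one. Without it, the 5 nuclear long noncoding RNAs that still had 50 UMIs were past 2-fold, and Snhg11 was no longer measured. The 9 nuclear long noncoding RNAs summed to 36261 CPM in mature against 7387 CPM in immature neurons, 25011 CPM without that cell and 41149 CPM without the 5 cells above 25% mitochondrial UMIs. Mitochondrial ribosomal RNAs took 25352 CPM in mature and 6841 CPM in immature neurons, and 18105 CPM in mature neurons without those 5 cells, and their part in the result was not tested. Malat1, Meg3, Snhg11 and both mitochondrial rRNAs were at least 2-fold higher in fresh than in MeOH-fixed immature neurons. Per cell, the 9 nuclear RNAs took 0.103 to 3.26% of UMIs in fresh immature neurons. In MeOH-fixed cells they took 0.0847 to 2.13% in immature and 0.298 to 7.46% in mature neurons. The higher levels of mature neurons are thus relative to MeOH-fixed immature neurons, and a difference from fresh ones was not tested. Of 12 mitochondrial mRNAs, 5 were at least 2-fold higher and none lower in mature neurons, whereas 7 of 12 were lower in immature neurons than in nIPCs and neuroblasts.

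Some neuronal genes were higher in mature neurons. The AMPA receptor subunit Gria2 was at 2975 CPM (2621 to 3364) against 1471 CPM (1337 to 1614), and the kainate receptor subunit Grik5 at 327 against 92.8 CPM, and these were the 2 of 8 measured glutamate receptor genes past 2-fold, none being lower (median 0.45). Without the cell with mossy cell markers, Gria2 was at 2762 CPM (log2 ratio 0.91) and thus short of 2-fold. The calcium channel Cacna1h was at 338 against 109 CPM, the potassium channel Kcnma1 at 257 against 116 CPM, and the synaptotagmin Syt7 at 1808 against 497 CPM. Without that cell, the levels in mature neurons were 423 CPM for Cacna1h, 166 CPM for Kcnma1 (log2 ratio 0.52, no longer measured) and 1992 CPM for Syt7. Zbtb20, a transcription factor of hippocampal neurons, was at 851, 298 and 653 CPM in the 3 stages. The postsynaptic scaffold gene Homer1 was at 373 against 89.4 CPM, with 22 of 32 UMIs in 1 mature neuron. It was at 151 CPM without the cell with mossy cell markers (log2 ratio 0.75, no longer measured). Of the genes that mark astrocytes, Apoe and Clu were at 560.0 and 338 CPM in mature and 189 and 103 CPM in immature neurons. The astrocyte and RGL list summed to 1750 CPM in mature, 672 in immature neurons and 1987 in nIPCs and neuroblasts against 55487 CPM in MeOH-fixed astrocytes and RGL, with 1 mature neuron above 1% of UMIs, and their part in the result was not tested.

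The lower genes of mature neurons came from many lists, and their counts are to be read against the 30.8% of all measured genes that were lower. Of 67 measured ribosomal protein genes, 23 were at least 2-fold lower and none higher (median -0.77), with Rpsa at 1078, 487 and 35.0 CPM (3 UMIs) in the 3 stages. Glycolysis genes were lower for 6 of 12, with Pgk1 at 563 CPM in immature and 81.7 CPM in mature neurons. Synaptic vesicle genes were lower for 7 of 20, calcium handling genes for 11 of 27 and cytoskeleton genes for 15 of 30, none of these lists having a higher gene. The shares of ribosomal protein and synaptic vesicle genes were near that of all genes. In addition, 198 of the 1470 genes measured in both contrasts, which share the immature neurons, were at least 2-fold above both neighbours in immature neurons, among them Cap2, Crym, Lgi1 and Slc2a13, with the smaller of both log2 ratios between 2.22 and 2.56. Both contrasts are within the MeOH-fixed library. Crym and Slc2a13 were also higher in MeOH-fixed than in fresh immature neurons (log2 ratios 2.66 and 1.87).

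Across the whole lineage, mature neurons were compared with nIPCs and neuroblasts at 453 measured genes, of which 109 (24.1%) were at least 2-fold higher and 162 (35.8%) lower (median -0.29), and without the mature neuron with mossy cell markers 74 and 158 of 376. Among genes with at least 100 UMIs and a UMI in 50% of the cells of the higher group, Meg3 had the highest ratio (5.29, and 3.64 without the cell with the most UMIs in either stage), followed by the copine Cpne6 (4.96, 3.56 to 6.86), the kinase Ptk2b (4.68, 3.28 to 6.59), Trank1 (4.67), Rasgrf1 (4.03) and Syt7 (3.99, 3.08 to 5.08). Sox11 (-5.72, -8.02 to -4.15), Tubb2b (-5.13) and Stmn1 (-4.66) were the lowest under the same limits. Ribosomal protein genes were lower for 58 of 61 measured, and the postsynaptic scaffold genes were higher for 6 of 7.

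The same stage was then compared between the libraries. Among nIPCs and neuroblasts, 44 of 765 measured genes (5.75%) were at least 2-fold higher in the MeOH-fixed and 61 (7.97%) in the fresh library. Malat1 was at 1771 and 8979 CPM (log2 ratio -2.34, -2.59 to -2.10), Id2 at 193 and 859 CPM and the ephrin receptor gene Epha4 at 227 and 950.3 CPM. Hmgn2, at 1759.5 and 387 CPM (2.19, 1.76 to 2.62), had the highest ratio among genes with at least 100 UMIs and a UMI in 50% of the cells of the higher group. The chromatin and HMG list that holds it summed to 7174 CPM in MeOH-fixed and 4666 CPM in fresh nIPCs and neuroblasts. The median per cell was 0.423% of UMIs in MeOH-fixed and 0.475% in fresh cells, and 5 of 21 MeOH-fixed cells exceeded 1%. Of 14 measured guidance and adhesion genes, 8 were lower and Reln, from the cells with Cajal-Retzius markers, was higher in MeOH-fixed nIPCs and neuroblasts (median -1.11).

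Among immature neurons, 143 of 1676 genes (8.53%) were at least 2-fold higher and 63 (3.76%) lower in the MeOH-fixed library, which compares 25 with 5 cells. This balance turned with the minimum: higher genes were 69.4% of those past 2-fold at 50 UMIs and 38.9% at 200 UMIs. Calb1 was at 755 CPM in MeOH-fixed and 146 CPM in fresh immature neurons (2.37, 1.60 to 3.27), where the 5 fresh cells held 7, 0, 0, 5 and 2 UMIs. Malat1 was at 2677 and 14558 CPM (-2.44, -2.57 to -2.32), and both mitochondrial ribosomal RNAs were lower in MeOH-fixed cells. None of 22 measured synaptic vesicle genes and none of 19 postsynaptic scaffold genes was past 2-fold. The 3 fresh cells with 28791, 31254 and 31563 UMIs carried most of the fresh counts.

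The 2 fresh mature neurons are described apart, as their leading transcripts were not neuronal markers. They held 8572 and 3674 UMIs but 189 and 196 genes at 800 UMIs, against 268 to 652 genes in the MeOH-fixed mature neurons. In the cell with 8572 UMIs, 2018 UMIs (23.5%) were from Kcnq1ot1, a long noncoding RNA antisense to Kcnq1, 1469 from Gm17821 and 896 from A630089N07Rik, and 8 transcripts together took 72.3% of its UMIs. The same 8 transcripts took 0.0425 to 6.02% of the UMIs in MeOH-fixed mature neurons. In the cell with 3674 UMIs, the ribosomal RNA transcript Rn45s took 51.2% of the UMIs and mt-Rnr2 7.84%. No UMI of Snap25, Slc17a7, Rbfox3, Calb1, Prox1, Rasgrp1, Dsp or Gda was counted in either, and all 14 genes of the granule lineage list were at 0. The data thus go against the label of both cells.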

How the data were processed

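Single cells were sorted into plates with 384 barcodes (SORT-seq, CEL-Seq2 chemistry). The authors mapped reads to GRCm38 with STAR, discarded reads with several equal matches, counted UMIs, adjusted them for collisions, kept barcodes by transcript, gene and spike-in number, and clustered both libraries after integration (R 4.2.0, Seurat 4.1.0). The cell metadata deposited by the authors also give mitochondrial transcripts in percent of a cell's transcripts, without spike-ins. The deposited values are expected counts for 15474 genes. Here the whole UMI number behind each expected count was recovered (largest distance from a whole number 3.638e-12, with 4096 possible UMIs). UMIs were summed over the cells of each stage within each library and given as CPM. Exact Poisson, Clopper-Pearson and conditional binomial intervals (95%) were computed. A gene was measured with at least 50 UMIs over both groups, and past the threshold at 2-fold, with 0 set to 3 counts. Intervals cover counting error only, not variation between mice. UMI totals of the stages were 175737, 96099 and 12246 (fresh) and 88091, 301864 and 85713 (MeOH-fixed). Doublets were gated out by scatter at sorting, and no doublet caller was run here.

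Named genes are the stage markers, list members with the largest ratios, the 10 highest and 10 lowest ratios per comparison with at least 100 UMIs and a UMI in 50% of the cells of the higher group, and 16 gene pairs. Members, 32 lists and alternatives were chosen with earlier results of these data known, and 4 lists (ribosomal proteins, mitochondrial mRNAs and rRNAs, nuclear long noncoding RNAs) were added after values were seen. Genes named for a single cell (Atp2a1, Kcnq1ot1 and the transcripts beside it, Rn45s) were also chosen after their values were seen. There were 69 alternatives set at the start and 11 added. Overlapping genes, such as Kcnq1ot1 and Kcnq1, may share counts, since the use of strand in counting is not given in the sources used here. Thinning drew 800 UMIs per cell. A gene that the rule names is not reported here. The steps were tested on simulated data. Calculations ran in Python 3.11.15 (scipy 1.17.1 for intervals, pandas 2.3.3 for tables, numpy 2.4.6 for thinning, matplotlib 3.10.9 for plots).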

Additional observations from a re-analysis of the deposited data

Results flagged for a closer look

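Prdm8, a transcriptional repressor of the PRDM family, was the single gene past 2-fold in opposite directions in the libraries among the 798 genes measured in both. Its log2 ratio of immature neurons over nIPCs and neuroblasts was 2.19 (1.02 to 3.68) in the MeOH-fixed and -2.21 (-3.39 to -1.21) in the fresh library. The levels of Prdm8 were 68.1 and 311 CPM in the MeOH-fixed and 432 and 93.7 CPM in the fresh nIPCs and immature neurons, from 6, 94, 76 and 9 UMIs, and 27 of the 94 UMIs were in 1 cell. The difference between the libraries was not tested.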

How the results depend on the processing

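No paired analysis was possible because each condition is 1 library. Of the main values under the alternatives, 80 kept their direction within the limits, 32 moved and 1 reversed, and the cause was not tested. The counts of genes past 2-fold (773 for immature over nIPC, 639 for mature over immature and 271 for mature over nIPC in MeOH-fixed cells, 425 for immature over nIPC in fresh cells, 105 and 206 between libraries in nIPCs and in immature neurons) became, in this order, 144, 103, 89, 35, 24 and 40 after thinning to 800 UMIs with a minimum of 20 UMIs, 1851, 1606, 954, 1332, 622 and 849 with at least 20 UMIs, and 147, 111, 24, 63, 9 and 18 with at least 200 UMIs. At 1.5-fold, 1002 (mature over immature), 283 (nIPC between libraries) and 553 (immature between libraries) were counted, and with each cell weighted equally 538 for the last. The share of these genes that were higher moved by over 10 points after thinning (52.8% in place of 75.7% for immature over nIPC in MeOH-fixed, 20.0% in place of 51.5% in fresh, 58.3% in place of 41.9% for nIPC between libraries), with at least 20 UMIs (32.8% in place of 22.2% for mature over immature, 51.0% in place of 40.2% for mature over nIPC) and with at least 200 (30.2% in fresh, 11.1% for nIPC and 38.9% in place of 69.4% for immature between libraries). The share with the same sign in both libraries was 93.8%, and 90.9% with each cell weighted equally and 86.8% with at least 20 UMIs. Of 384 barcodes, the lineage was 5.99% in fresh and 16.9% in MeOH-fixed cells. With means in place of medians, the log2 ratio of UMIs per cell was -1.42 in place of -2.18 for mature over immature, 0.10 in place of -0.60 for mature over nIPC (reversed), 0.81 in place of 1.33 for immature over nIPC in fresh cells, and -0.67 in place of -1.32 for immature neurons between libraries. The median share of mature markers in MeOH-fixed immature neurons was 0 in place of 0.125% after thinning. Without the deepest cell, astrocyte and Cajal-Retzius markers in MeOH-fixed nIPCs were at 1484 and 4054 CPM. Of 141 ratios of named genes, 137 kept their sign with each cell weighted equally and 139 without the deepest cells.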
